A study of Mus musculus with 16 samples.

Results

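Matrix metalloproteinases are zinc-dependent enzymes that cut the proteins of the extracellular matrix, and tissue inhibitors of metalloproteinases bind and block them. The 9 genes described here are the metalloproteinases Mmp2, Mmp8, Mmp9, Mmp12, Mmp13, Mmp14 and Mmp19 and the inhibitors Timp1 and Timp2. They were taken as the array features whose annotated gene symbol is 1 of these names, which gave 9 of the 19938 genes measured, each with 1 feature. The RNA came from bone marrow cells of mice that had matured into macrophages in L-cell conditioned medium and were given interferon-gamma, a cytokine of lymphocytes that activates macrophages. Pretreated cells, so labelled and marked by a title token for earlier interferon, supplied 4 arrays for 0 h and 2 each for 3 h and 6 h, and naive cells supplied as many for each time. All 6 groups came from mice with the H3.3-HA knock-in, an epitope tag on a histone variant, so no group lacks the tag. The sources used here do not give the dose, the length of the pretreatment or any pause after it. The groups hold no unstimulated cells kept for 3 h or 6 h, so interferon-gamma and time in culture cannot be told apart.

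Metalloproteinases are made as inactive precursors that another protease must open, so the amount of an mRNA is only the first step towards activity. Mmp8 and Mmp13 are collagenases, which cut native fibrillar collagen. Mmp2 and Mmp9 are gelatinases, which cut unfolded collagen and basement membrane. Mmp12 is macrophage elastase, Mmp14 is anchored in the cell membrane and activates the Mmp2 precursor in a complex with Timp2, and Mmp19 cuts several basement membrane proteins. Timp1 and Timp2 are secreted and inhibit most members of the family. Macrophages are a main source of these enzymes in inflamed tissue.

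Mmp13 and Mmp12 are next to each other on chromosome 9, and of that pair Mmp13 passed the test after stimulation in these cells and Mmp12 did not. The windows below run from 250 bases before to 50 bases after a transcript start and are credited to RefSeq (build GRCm38.p6, plus strand, 5′ to 3′). Such windows were at hand for 6 of the 9 members. Capitals mark the matches to 4 motifs searched on both strands, which were TGANTCA for AP-1, TTCNNNGAA for GAS, GAAANNGAA for ISRE and GGGNNTTCC for kB. The Mmp13 window is chr9:7272264-7272563, and the second of the 2 Mmp12 windows is chr9:7347124-7347423.
Mmp13: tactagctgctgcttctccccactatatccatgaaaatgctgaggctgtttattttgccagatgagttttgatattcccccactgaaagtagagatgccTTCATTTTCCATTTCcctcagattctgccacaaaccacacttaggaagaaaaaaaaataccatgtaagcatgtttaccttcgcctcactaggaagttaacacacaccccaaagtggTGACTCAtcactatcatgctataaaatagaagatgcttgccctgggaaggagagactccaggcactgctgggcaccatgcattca
Mmp12: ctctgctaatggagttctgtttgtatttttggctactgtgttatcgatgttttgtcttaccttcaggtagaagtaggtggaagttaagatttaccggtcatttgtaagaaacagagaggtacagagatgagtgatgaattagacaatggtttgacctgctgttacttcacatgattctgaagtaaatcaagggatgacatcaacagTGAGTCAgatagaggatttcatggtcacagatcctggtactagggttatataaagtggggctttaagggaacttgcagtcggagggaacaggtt

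The Mmp13 window holds TGACTCA, an AP-1 match, 35 bases before the start. It also holds a pair of ISRE matches on the other strand, 151 and 145 bases before the start, which overlap and are printed as 1 run of capitals. The Mmp12 window holds TGAGTCA, also an AP-1 match, 44 bases before its start. Among all 32851 windows of this length, 7.81% hold the AP-1 letters, 8.56% the ISRE letters, 8.3% the GAS letters and 5.82% the kB letters. The other 5 windows, for Mmp8, Mmp14, Timp1, Timp2 and the first Mmp12 start, hold none of the 4. A match is a string of letters and was not tested as a binding site.

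Values are log2 intensities as deposited, so a difference of 1 is a change by a factor of 2, and levels of different genes cannot be set against each other. The arrays came in 2 sets of 8 that were not on 1 scale. Set 1 holds 0 h and 6 h arrays and set 2 holds 0 h and 3 h arrays, and column medians were 7.151 to 7.226 in set 1 and 6.886 to 6.997 in set 2. Every comparison was therefore made within a set. Within each set the titles number the arrays from 1 to 8, so that each group has 1 array among numbers 1 to 4 and 1 among numbers 5 to 8. Values of a group in a set are given in that order, the low-numbered array before the high-numbered one. The 2 arrays of a group in a set had a Pearson correlation of 0.9896 to 0.995 over genes, which describes likeness only, since genes are not independent. No label says that the arrays of a group are separate cultures or animals, so the spread behind each p-value may be technical.

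The label of macrophages was checked against marker genes. All 9 measured macrophage markers averaged over 6.5, a level below which a feature is called dim here. Csf1r, the receptor for macrophage growth factor, lay at 13.06 to 13.67 and Lyz2 at 13.68 to 13.93. Of 10 neutrophil markers 3 averaged over that level, and S100a8, S100a9, Ly6g and Cxcr2 did not. Of 10 stromal markers 5 did, and Dcn, Lum, Pdgfra, Pdgfrb and Postn did not. No neutrophil or stromal marker passed the test in any comparison below, while macrophage, dendritic cell and osteoclast markers did. Of the macrophage markers Cd14 fell at 6 h by 1.06 ± 0.23 in pretreated cells (limma adjusted p = 0.0151) and fell by 0.87 ± 0.23 in naive cells (0.0168), while Fcgr1 and Spi1 rose at 6 h in both. Fcgr1 also rose in naive cells at 3 h, by 1.80 ± 0.18 (5.51e-05). At 0 h Fcgr1 was higher in pretreated than in naive cells, by 1.10 ± 0.13 (6.5e-04). Of 6 osteoclast markers Ocstamp alone passed, higher in pretreated than in naive cells by 0.66 ± 0.12 at 0 h (adjusted p = 0.0157) and 0.93 ± 0.17 at 6 h (0.0319), and it rose by 0.77 ± 0.17 in pretreated cells at 6 h (0.0177). Each call of Cd14, Spi1 and Ocstamp was lost with some 1 array left out, at adjusted p = 0.0515 to 0.235, and that of Fcgr1 in pretreated cells at 6 h likewise. Without naive 6 h replicate 2, Cd14 in naive cells differed by -0.45 (0.165). In bulk RNA, fewer cells of a type and less RNA per cell cannot be told apart.

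After stimulation Mmp13 rose strongly in pretreated and in naive cells at both times. Mmp14 rose in naive cells at 6 h, a call that was lost with some 1 array left out. No metalloproteinase or inhibitor among the 9 fell by an amount that passed the test. A limma fit to all 16 arrays, here the main fit, was used, and the threshold was an adjusted p of 0.05 over all 19938 genes. Passing refers to that fit unless another setting is named. A block for low- and high-numbered arrays, an alternative given at the end, called more members. In naive cells at 6 h it added Mmp8 and Timp2 as lower and Timp1 as higher, and in pretreated cells at 6 h Mmp19 as higher. In pretreated cells 1 of 9 members passed at 3 h, against 2.85% of all genes, and 1 of 9 at 6 h, against 5.65%. In naive cells 1 of 9 passed at 3 h, against 5.46% of all genes, and 2 of 9 at 6 h, against 18.3%. The median log2 change of the 9 members was 0.038 at 3 h and -0.012 at 6 h in pretreated cells, and 0.051 and -0.062 in naive cells. Over all genes those medians were -0.001, -0.032, 0 and -0.015, in the same order, so the members as a list lay near the rest.

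**Figure D1:**
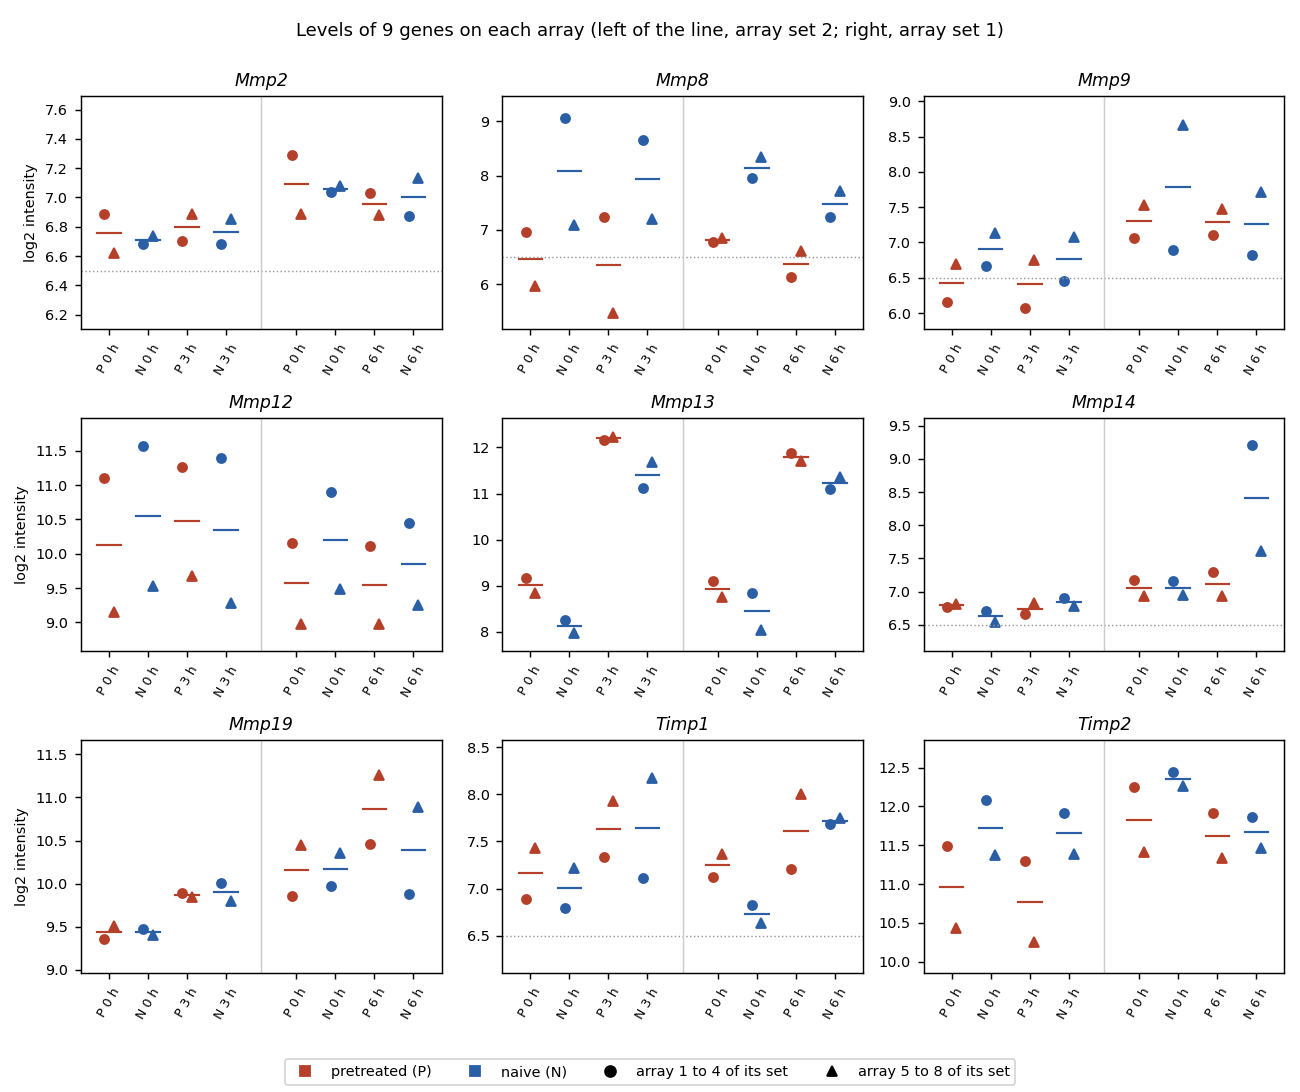
Log2 intensity (vertical axis) of each member on each array, with pretreated cells in red and naive cells in blue, array set 2 left of the grey line and set 1 right of it. Circles are low-numbered and triangles high-numbered arrays, short bars are means of 2 arrays, and the dotted line is 6.5; Mmp13 at 3 h and 6 h stands clear of 0 h on every array, while Mmp12 splits by array number in every group.

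The collagenase Mmp13 was at 12.16 and 12.23 in pretreated cells at 3 h, against 9.18 and 8.84 at 0 h in the same set. In naive cells it was at 11.12 and 11.69 at 3 h, against 8.27 and 7.98 at 0 h. The 3 h arrays lay above every 0 h array of their set, with no overlap. The log2 change was 3.19 ± 0.25 (SE) in pretreated cells, a 9.11-fold rise (limma adjusted p = 3.27e-05), and 3.29 ± 0.25 in naive cells, a 9.75-fold rise (5.80e-06). At 6 h Mmp13 was at 11.88 and 11.71 in pretreated cells, against 9.11 and 8.76 at 0 h, a 7.24-fold rise (2.86 ± 0.25, adjusted p = 5.69e-05). In naive cells it was at 11.11 and 11.37 at 6 h, against 8.85 and 8.05 at 0 h, a 6.90-fold rise (2.79 ± 0.25, adjusted p = 1.16e-05). Taken by array number, the rises ranged from 2.76 to 3.40 in pretreated cells and from 2.26 to 3.71 in naive cells, so every pair of arrays showed a rise of more than 4-fold. None of the 22 alternative settings ended any of these 4 calls.

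The rise of Mmp13 was not shown to differ between the kinds of cell, and its level was higher in pretreated cells in 8 of 8 pairs, by an amount that did not pass the test. The difference between the responses was -0.10 at 3 h (95% interval -0.87 to 0.68) and 0.07 at 6 h (-0.71 to 0.84), so differences of up to those bounds are not excluded at this number of arrays. Before stimulation Mmp13 was at 9.11, 8.76, 9.18 and 8.84 in pretreated cells, against 8.85, 8.05, 8.27 and 7.98 in naive cells. Pretreated arrays were higher in 4 of 4 pairs, by 0.26 to 0.91, and within set 2 the groups did not overlap. The mean difference was 0.68 ± 0.18 (95% interval 0.30 to 1.07, limma adjusted p = 0.13). With 1 array left out the difference ranged from 0.49 to 0.88, and the 0.88 came without naive 0 h replicate 1. At 3 h the pretreated arrays were above the naive arrays by 0.79 ± 0.25 (adjusted p = 1.0), and at 6 h by 0.55 ± 0.25 (adjusted p = 0.398), again in both pairs each time.

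**Figure D2:**
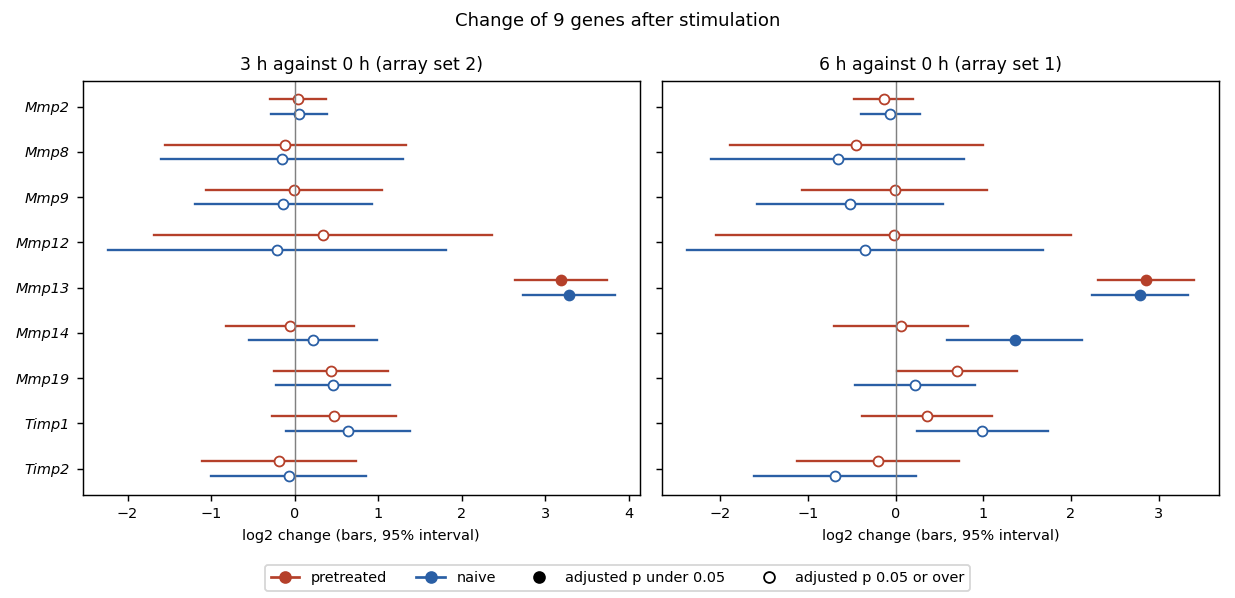
Log2 change from 0 h (horizontal axis) of each member at 3 h (left) and 6 h (right), pretreated cells in red above naive cells in blue, with bars for the 95% interval of the limma fit. Filled points had an adjusted p under 0.05: Mmp13 in all 4 responses, between 2.79 and 3.29, and Mmp14 in naive cells at 6 h, at 1.36.

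Mmp8, the other collagenase and one that neutrophils store in granules, was lower on pretreated arrays in every pair of like-numbered arrays. The difference did not pass the test in the main fit, and it passed with the block for array number. At 0 h it was at 6.78, 6.86, 6.96 and 5.97 in pretreated cells, against 7.95, 8.34, 9.06 and 7.10 in naive cells, so in neither set did a pretreated array reach a naive one. At 3 h it was at 7.24 and 5.47 in pretreated cells, against 8.65 and 7.21 in naive cells. At 6 h it was at 6.13 and 6.61 in pretreated cells, against 7.24 and 7.72 in naive cells. Pretreated arrays were lower in 8 of 8 pairs, with differences of -2.10 to -1.11, and the 3 arrays under 6.5 were all pretreated. The mean difference was -1.47 ± 0.47 at 0 h, a level 2.77-fold lower (limma adjusted p = 0.284), -1.58 ± 0.66 at 3 h (1.0) and -1.11 ± 0.66 at 6 h (0.606). Low-numbered arrays of set 2 lay 0.99 to 1.96 above high-numbered ones within every group, a spread that enters the SE. Stimulation itself moved Mmp8 by -0.11 at 3 h and -0.45 at 6 h in pretreated cells and by -0.15 and -0.66 in naive cells, each within 1 SE of 0. At 6 h both pairs were lower than at 0 h in either kind of cell, and at 3 h the pairs disagreed in sign. Of the 10 neutrophil markers 7 averaged under 6.5. In set 1 their mean lay at 6.07 to 6.15 on pretreated arrays and at 5.96 to 6.18 on naive arrays. In set 2 it lay at 5.52 to 5.81 on pretreated arrays and at 5.40 to 5.61 on naive arrays.

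**Figure D3:**
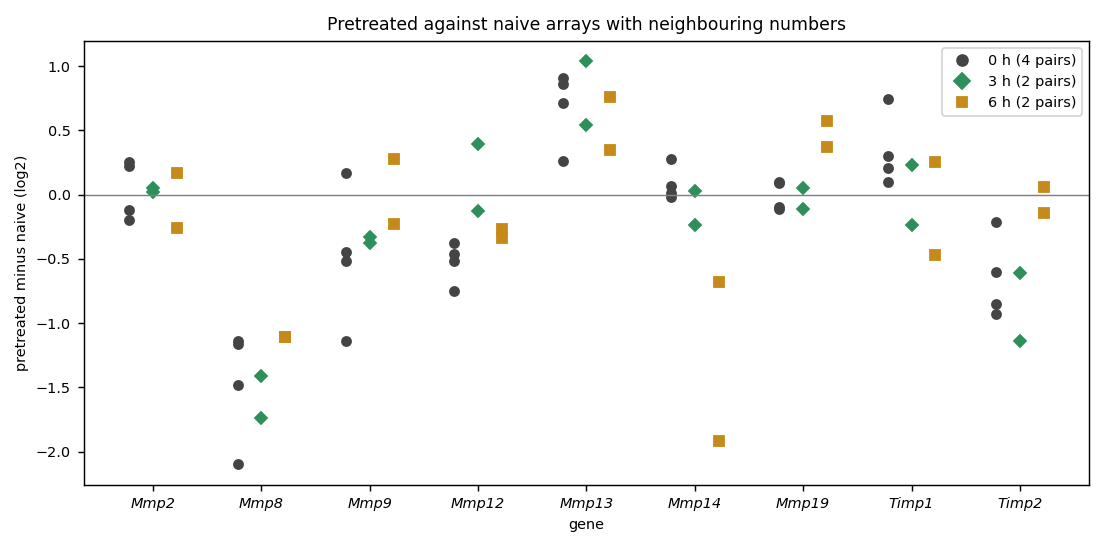
Log2 difference between the pretreated and the naive array with neighbouring numbers in a set (vertical axis), for each member at 0 h (4 pairs), 3 h (2) and 6 h (2). All 8 points lie below 0 for Mmp8, between -2.10 and -1.11, and all 8 above 0 for Mmp13, between 0.26 and 1.04.

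No member passed the test between pretreated and naive cells at any time in the main fit. At 0 h this was 0 of 9 members, against 0.963% of all genes, at 3 h 0 of 9, against 0.015%, and at 6 h 0 of 9, against 0.702%. An unadjusted limma p was under 0.05 for 2 members each time, which were Mmp8 and Mmp13 at 0 h and 3 h and Mmp13 and Mmp14 at 6 h. Of all 19938 genes, 1569 at 0 h, 738 at 3 h and 2458 at 6 h had an unadjusted p under 0.05. The member median was -0.006 at 0 h, -0.033 at 3 h and -0.045 at 6 h, against 0.016, 0.001 and 0.023 over all genes. With the block for array number, kept as an alternative, Mmp8 passed as lower in pretreated cells at 0 h, 3 h and 6 h. Mmp12 and Timp2 then passed as lower at 0 h, and Mmp14 at 6 h. Over all genes that block called 684 at 0 h, 76 at 3 h and 845 at 6 h. For the difference between the responses, 0 of 9 passed at 3 h, against 0.0802% of all genes, and 0 of 9 at 6 h, against 0.145%. The unadjusted limma p was under 0.05 for 0 and 1 members, against 330 and 1819 of all 19938 genes.

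Of the gelatinases, neither passed in any comparison, and they differed in spread. Mmp2 was flat, between 6.62 and 7.29 on the 16 arrays, and its 4 log2 responses lay between -0.14 and 0.05 with an SE of 0.15. Those intervals leave room for a change of at most 0.47 on the log2 scale in either direction. Mmp9 ranged from 6.07 to 8.67, with 3 arrays under 6.5. Its highest value, 8.67, was on naive 0 h replicate 2, and the other naive 0 h array of that set was at 6.90. In naive cells at 6 h Mmp9 was at 6.82 and 7.71, which gave a change of -0.52 ± 0.49 (limma adjusted p = 0.628), and without naive 0 h replicate 1 it was -1.41 (adjusted p = 0.0492). In pretreated cells its changes were -0.01 at both times. Low-numbered arrays were below high-numbered ones in all 8 combinations of group and set, with differences of -1.77 to -0.37.

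Macrophage elastase, Mmp12, differed by array number within every group. Low-numbered arrays lay at 10.11 to 11.57 and high-numbered arrays at 8.98 to 9.67, with no overlap. Within a group and set the difference was 1.13 to 2.11, with a median of 1.5, in 8 of 8 cases. No response passed, and the changes were 0.34 at 3 h and -0.02 at 6 h in pretreated cells and -0.21 and -0.35 in naive cells, each with an SE of 0.93. At 0 h, Mmp12 was at 10.16, 8.98, 11.11 and 9.15 in pretreated cells, against 10.90, 9.49, 11.57 and 9.53 in naive cells. It was lower in pretreated cells in 4 of 4 pairs, with differences of -0.75 to -0.38 and a mean of -0.53 ± 0.66 (limma adjusted p = 0.933). The split by array number enters that SE. With the block for array number the same difference had a limma adjusted p of 0.00843, though no label says that these numbers pair arrays.

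Timp2 shared that split and Timp1 mostly ran against it. Timp2 was higher on the low-numbered array in 8 of 8 cases, by 0.20 to 1.06, and Timp1 lower in 7 of 8. Of all genes, 6.07% had 1 sign in all 8 cases and 0.416% also had a median size over 1, as Mmp12 did. Among the marker lists, the mean of 6 osteoclast markers was higher on the low-numbered array in every group and set, by 0.30 to 0.70, though Calcr and Dcstamp averaged under 6.5. Atp6v0d2 ranged widest of the 6, from 7.45 to 11.92 over arrays, so this mean need not be a shift of the whole list. The macrophage list differed by -0.15 to 0.06 and the neutrophil list by -0.29 to 0.07. The part of osteoclast-like expression in the split of Mmp12 was not tested.

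**Figure D4:**
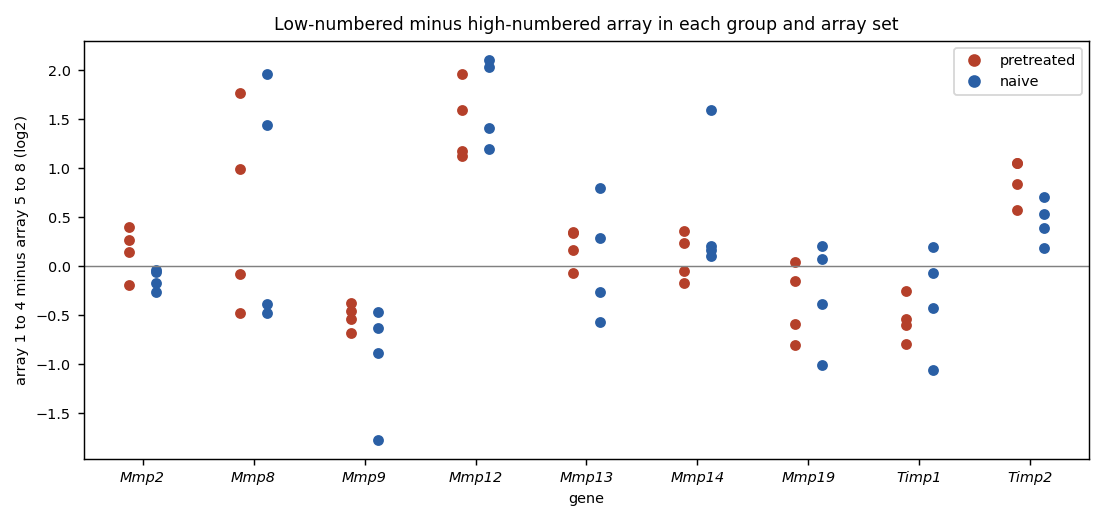
Log2 intensity of the low-numbered array minus that of the high-numbered array (vertical axis) for each member, 1 point for each of the 8 combinations of group and array set, pretreated in red and naive in blue. All 8 points are above 0 for Mmp12, from 1.13 to 2.11, and for Timp2, and all 8 are below 0 for Mmp9.

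The membrane enzyme Mmp14 passed the test once, and 1 array carried most of that change. In naive cells it was at 9.21 and 7.61 at 6 h, against 7.16 and 6.95 at 0 h. Both 6 h arrays lay above both 0 h arrays, but the rise was 2.05 for the low-numbered pair and 0.66 for the high-numbered pair. The log2 change was 1.36 ± 0.35, a 2.56-fold rise (limma adjusted p = 0.0168). Without naive 6 h replicate 1 it was 0.56 and did not pass (adjusted p = 0.0755). Leaving out 1 of the naive 0 h arrays of that set also ended the call (1.46, adjusted p = 0.0543 without replicate 1, and 1.25, 0.106 without replicate 2).

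In pretreated cells Mmp14 was at 7.29 and 6.93 at 6 h, against 7.17 and 6.93 at 0 h, a change of 0.06 ± 0.35. The pretreated arrays at 6 h were below both naive arrays at 6 h. That difference was -1.30 ± 0.35 and missed the threshold (limma adjusted p = 0.119), and without naive 6 h replicate 2 it was -2.10 and passed (adjusted p = 3.27e-04). The difference between the 6 h responses was -1.30 ± 0.50 (adjusted p = 0.412), and -2.10 without that array (adjusted p = 0.00402). At 3 h Mmp14 was at 6.66 and 6.83 in pretreated cells and at 6.90 and 6.79 in naive cells, within 0.25 of the 0 h arrays in each pair. The fit therefore does not show that the 6 h response of Mmp14 differs between pretreated and naive cells.

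Mmp19 lay between 9.36 and 11.26 and did not pass in the main fit. At 6 h it was at 10.46 and 11.26 in pretreated cells, against 9.86 and 10.45 at 0 h, so both pairs were higher, by 0.59 and 0.81. The change was 0.70 ± 0.31 (limma adjusted p = 0.317), and with the block for array number its adjusted p was 0.00824. In naive cells at 6 h it was at 9.88 and 10.89, against 9.97 and 10.36 at 0 h, and the pairs disagreed in sign. At 3 h it was higher than at 0 h in both pairs of either kind of cell, by 0.43 ± 0.31 in pretreated and 0.46 ± 0.31 in naive cells.

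Timp1, an inhibitor that many inflammatory signals induce, was higher after stimulation in all 8 pairs without passing the test. In naive cells it was at 7.68 and 7.75 at 6 h, against 6.83 and 6.63 at 0 h, with no overlap. That change was 0.99 ± 0.34, or 1.99-fold (limma adjusted p = 0.0665), and with the block for array number its adjusted p was 0.00358. With 1 array left out it lay between 0.89 and 1.09. Its call turned on leaving out either naive 3 h array, which enters it only through the shared estimate of spread. The other changes were 0.47 at 3 h and 0.36 at 6 h in pretreated cells and 0.64 at 3 h in naive cells, with the same SE. At 0 h Timp1 was at 7.12, 7.37, 6.89 and 7.43 in pretreated cells, against 6.83, 6.63, 6.79 and 7.22 in naive cells, higher in 4 of 4 pairs by 0.10 to 0.74 (0.34 ± 0.24, adjusted p = 0.843).

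Timp2, which both inhibits metalloproteinases and takes part in the activation of Mmp2, lay between 10.25 and 12.45 and passed in no comparison of the main fit. At 0 h it was at 12.25, 11.41, 11.49 and 10.44 in pretreated cells, against 12.45, 12.26, 12.08 and 11.37 in naive cells. It was lower in pretreated cells in 4 of 4 pairs, with differences of -0.93 to -0.21 and a mean of -0.65 ± 0.30 (limma adjusted p = 0.644). With the block for array number, an alternative, that difference had an adjusted p of 0.0104. At 3 h it was at 11.30 and 10.25 in pretreated cells, against 11.92 and 11.39 in naive cells (-0.88 ± 0.42, adjusted p = 1.0). At 6 h the groups overlapped, with 11.91 and 11.33 in pretreated cells, against 11.86 and 11.47 in naive cells. In naive cells at 6 h both arrays lay below the 0 h arrays, with pair differences of -0.60 and -0.79 (-0.69 ± 0.42, adjusted p = 0.364). With the block that fall had an adjusted p of 0.00865.

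The 3 h and 6 h responses were set against each other as a difference of changes, in which time and array set cannot be told apart. No member passed, with 0 of 9 in pretreated cells, against 0.0201% of all genes, and 0 of 9 in naive cells, against 1.73%. Mmp13 had a 6 h response that was smaller, by -0.33 ± 0.36 in pretreated cells and -0.50 ± 0.36 in naive cells (limma adjusted p = 0.924 and 0.671). Mmp14 had a 6 h response larger by 1.13 ± 0.50 in naive cells (limma adjusted p = 0.344). It was larger by 1.93 without naive 6 h replicate 2 and by 0.33 without naive 6 h replicate 1.

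Mmp13, Mmp12 and Mmp8 belong to a run of 10 metalloproteinase genes in a row on chromosome 9, and the responses of that run were uneven. In order the genes are Mmp13, Mmp12, Mmp1b, Mmp3, Mmp1a, Mmp10, Mmp8, Mmp27, Mmp20 and Mmp7. Mmp1b, Mmp3, Mmp1a, Mmp10, Mmp20 and Mmp7 averaged under 6.5, and none of them passed. Mmp13 passed in 4 of 4 responses, at 2.79 to 3.29. Mmp27, the only other gene of the run that passed, fell in naive cells at 6 h by 0.83 ± 0.21 on the log2 scale (limma adjusted p = 0.0162). That call was lost when naive 0 h replicate 2 was left out (-0.71, adjusted p = 0.127), and likewise for naive 6 h replicate 1 (-0.78, 0.101) or 2 (-0.87, 0.0527). It was also lost with quantile normalization again (-0.68, 0.0558). Mmp27 was also lower in pretreated than in naive cells at 0 h, by -0.88 ± 0.15 (adjusted p = 0.0109) and in 4 of 4 pairs. This too was lost without naive 0 h replicate 2 (-0.82, adjusted p = 0.0672) or 3 (-0.83, 0.0589) and without pretreated 0 h replicate 2 (-0.83, 0.0591) or 4 (-0.75, 0.0545).

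**Figure D5:**
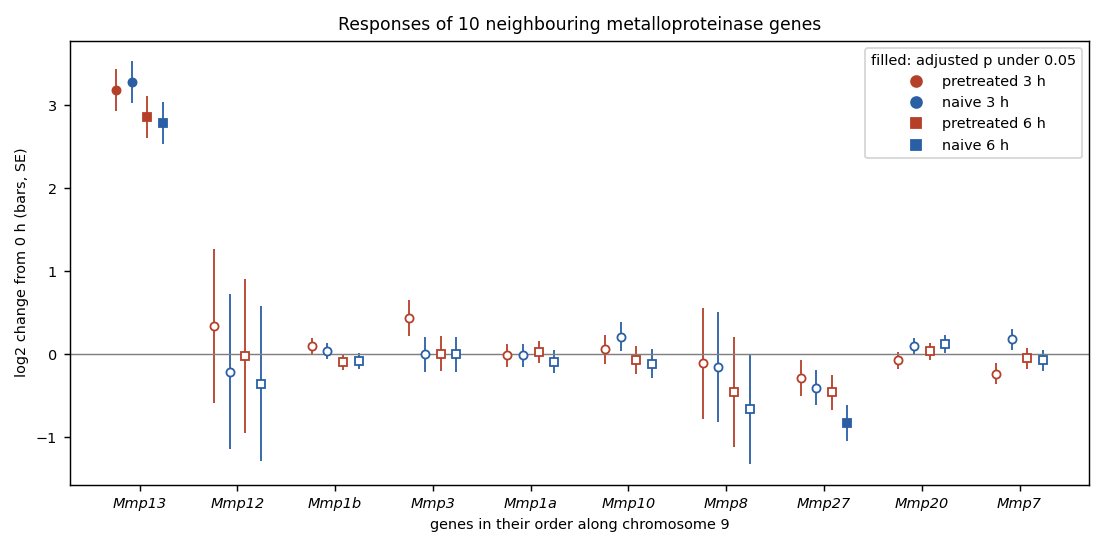
Log2 change from 0 h (vertical axis, bars for the SE) of 10 metalloproteinase genes in their order along chromosome 9, pretreated in red and naive in blue, 3 h as circles and 6 h as squares, filled where the adjusted p was under 0.05. Mmp13 stands at 2.79 to 3.29 beside Mmp12, whose responses of -0.35 to 0.34 did not pass.

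Among 17 further metalloproteinases and inhibitors measured, of which 10 averaged under 6.5, Mmp25 was the only one to rise. Mmp25 is a metalloproteinase held to the cell surface by a lipid anchor. It was at 8.57 and 8.52 in pretreated cells at 3 h, against 7.04 and 7.18 at 0 h, and at 8.05 and 7.93 in naive cells at 3 h, against 6.61 and 6.51 at 0 h. At 6 h it was at 9.66 and 9.84 in pretreated cells, against 7.07 and 7.12 at 0 h, and at 10.52 and 9.87 in naive cells, against 6.41 and 6.74 at 0 h. The log2 rise was 1.44 ± 0.18 at 3 h and 2.66 ± 0.18 at 6 h in pretreated cells, and 1.43 and 3.62 in naive cells (limma adjusted p from 1.31e-07 to 7.83e-04). None of the 22 alternative settings ended these calls. In this list 1 gene rose and 0 fell in each response, except for naive cells at 6 h, where Mmp27 also fell. Of all genes, 2.85% at 3 h and 5.65% at 6 h passed in pretreated cells, and 5.46% and 18.3% in naive cells. The median change of the list was 0.06 at 3 h and 0.01 at 6 h in pretreated cells and 0.08 and -0.08 in naive cells.

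Genes that activate, bind or clear the enzymes mostly did not pass. Of 18 measured activators, partners and other inhibitors, 0 rose and 1 fell at 6 h in either kind of cell, and 0 passed at 3 h. Of all genes, 2.85% at 3 h and 5.65% at 6 h passed in pretreated cells, and 5.46% and 18.3% in naive cells. The partner gene that fell was Lrp1, an uptake receptor that clears metalloproteinases and their inhibitors. It fell by 0.84 ± 0.14 in pretreated and fell by 1.36 ± 0.14 in naive cells at 6 h (limma adjusted p = 0.00322 and 3.01e-05). Of 12 ADAM and ADAMTS proteases, the sheddase Adam8 fell in naive cells at 6 h by 1.72 ± 0.20 (adjusted p = 9.20e-05). In pretreated cells it changed by -0.91 ± 0.20 (adjusted p = 0.0195), a call lost without any 1 of the 4 pretreated arrays of that set, with changes of -1.06 to -0.76. Adam8 was 1.21 ± 0.20 higher in pretreated than in naive cells at 6 h (adjusted p = 0.0235), which was lost without naive 6 h replicate 2 (0.91, adjusted p = 0.0544) or pretreated 6 h replicate 1 (1.06, 0.178) or 2 (1.36, 0.166). Adam9 rose in naive cells at 3 h by 0.46 ± 0.10 (adjusted p = 0.0137), a call lost without any 1 of the 4 naive arrays of that set, at 0.42 to 0.51. No other gene of these 2 lists passed the test after stimulation, whatever the size of its change: Plau, an activator, differed by -1.36 ± 0.52 at 3 h and 1.06 ± 0.52 at 6 h in naive cells (adjusted p = 0.199 and 0.217). The median change of the 18 partner genes lay between -0.07 and 0.02 over the 4 responses and that of the 12 proteases between -0.07 and 0.04.

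Several transcription factors known to act on metalloproteinase promoters passed in each response. Of 20 measured, 4 rose and 1 fell at 3 h and 5 rose and 0 fell at 6 h in pretreated cells, and 6 rose and 2 fell at 3 h and 8 rose and 1 fell at 6 h in naive cells. Over all genes 2.85% and 5.65% were called at 3 h and 6 h in pretreated cells, and 5.46% and 18.3% in naive cells. With 1 array left out, as few as 3 rose at 3 h and 3 at 6 h in pretreated cells, and 4 at 3 h and 5 at 6 h in naive cells. The low count at 6 h came without either pretreated 6 h array, and in naive cells with naive 6 h replicate 1 or naive 0 h replicate 2 left out. At 3 h in naive cells it came with naive 3 h replicate 2 or naive 0 h replicate 4 left out. In each response where 1 or 2 had fallen, 0 fell with some 1 array left out. The list median was 0.09 and 0.20 in pretreated cells and 0.27 and 0.44 in naive cells. Irf1, Irf8 and Stat3 rose in all 4 responses and kept those calls under all 22 alternatives. Of the AP-1 genes, Fos changed by -1.84 ± 0.33 in naive cells at 3 h (limma adjusted p = 0.00511). Jun rose in naive cells by 0.92 ± 0.16 at both times (0.00419 and 0.00151). Junb rose in naive cells at 6 h by 0.84 ± 0.21 (0.0149). Ets1 fell in naive cells at 3 h and 6 h and in pretreated cells at 3 h (0.00531, 0.0259 and 0.027). Except for Jun at 6 h, each of these Fos, Jun, Junb and Ets1 calls was lost with some 1 array left out. Irf1, a factor induced directly by interferon-gamma, rose by 1.28 ± 0.15 at 3 h and 1.43 ± 0.15 at 6 h in pretreated cells and by 2.93 and 2.26 in naive cells. Its 3 h response was smaller in pretreated cells, by -1.65 ± 0.21 (limma adjusted p = 0.00822). That call was lost with an additive array-set term (-1.26, adjusted p = 0.244) and without naive 3 h replicate 2, pretreated 0 h replicate 4 or pretreated 3 h replicate 2 (-1.65 to -1.56). Irf1 was higher in pretreated cells at 0 h, by 1.11 ± 0.10 as the mean of both sets (limma adjusted p = 8.90e-05). In set 1 it lay at 11.47 to 11.90 in pretreated cells at 0 h, against 10.88 to 11.05 in naive cells. In set 2, which holds the 3 h arrays, it lay at 11.52 to 11.70, against 9.95 to 10.27. At 3 h it reached 12.85 to 12.93 in pretreated and 13.03 to 13.05 in naive cells. The 3 h response of Mmp13 differed by -0.10 ± 0.36. Whether these 2 genes differ in this was not tested.

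Of 15 measured matrix proteins and matrix-bound substrates, 1 rose in each response, Vcan, and Tnf rose as well in naive cells at 6 h, and none fell. Of all genes, 2.85% at 3 h and 5.65% at 6 h passed in pretreated cells, and 5.46% and 18.3% in naive cells. The list median lay between 0.00 and 0.14 over the 4 responses. Vcan, which encodes the large proteoglycan versican, rose by 1.77 ± 0.14 at 3 h in pretreated cells (limma adjusted p = 3.51e-05) and by 1.44 at 3 h and 1.85 at 6 h in naive cells (4.36e-05 and 3.17e-06). In pretreated cells at 6 h it rose by 0.69 ± 0.14 (adjusted p = 0.0128), a call lost without pretreated 0 h replicate 1 (0.65, adjusted p = 0.0736) or pretreated 6 h replicate 2 (0.59, 0.139). At 6 h Vcan was lower in pretreated than in naive cells by -1.01 ± 0.14 (adjusted p = 0.0129), which was lost without pretreated 6 h replicate 1 (-0.92, 0.107) or 2 (-1.11, 0.069) or naive 6 h replicate 1 (-0.92, 0.123). Tnf, a cytokine released from the membrane by a sheddase, rose in naive cells at 6 h by 4.19 ± 0.65 (adjusted p = 6.32e-04). Of 6 dendritic cell markers, 1 rose at 6 h in pretreated cells and 2 in naive cells, and 0 fell. Clec9a rose by 3.62 ± 0.39 in pretreated and by 4.44 ± 0.39 in naive cells. At 0 h Clec9a was higher in pretreated than in naive cells, by 1.67 ± 0.28 (limma adjusted p = 0.00921), a call lost with some 1 array left out. Xcr1 rose in naive cells by 1.10 ± 0.28 (adjusted p = 0.0153), a call lost without naive 6 h replicate 1 (0.57, adjusted p = 0.171) and with naive 0 h replicate 1 or 2 left out (0.0635 and 0.0828). Flt3 and Cd209a averaged under 6.5. The median change of the 6 was 0.095 in pretreated and 0.08 in naive cells. The mean of the 6 markers was 7.44 to 7.61 in pretreated cells at 6 h, against 6.79 to 6.81 at 0 h, and 7.34 to 7.45 in naive cells at 6 h, against 6.42 to 6.54 at 0 h. Their part in the rises of Mmp13, Mmp14 and Mmp25 was not tested.

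The genes whose pattern was most like that of a member were sought over the 16 arrays, each gene centred on its mean in each set. For Mmp13 they were Il1rn, an antagonist of interleukin-1, with r = 0.978, Socs1, an inhibitor of cytokine signalling, with r = 0.974, and Batf2, with r = 0.972. For Mmp14 they were F2r, a thrombin receptor, with r = 0.965, Fzd1, a Wnt receptor, with r = 0.960, and Jam2, with r = 0.959. These are descriptions over arrays that share their groups and normalization. F2r, Fzd1 and Jam2 were each highest on naive 6 h replicate 1, at 8.58, 11.46 and 8.78, the array that also held the highest Mmp14. Without it the likeness to Mmp14 was 0.711, 0.873 and 0.690, and that of the other 3 genes to Mmp13 was 0.976 to 0.991.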

How the data were processed

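Total RNA, 1 sample an array, was measured on 16 Affymetrix mouse gene arrays and biotin-labelled by the maker's protocol, per the labels. The authors deposited log2 intensities, and the sources used here do not give the background correction, normalization or summary. Column minima (2.842 to 2.939 in set 1, 2.127 to 2.218 in set 2) and medians were read as separate normalization of the sets, which come from the title numbering.

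Symbols are those of the platform annotation. Of the 21789 features with 1 symbol, 21698 matched a RefSeq gene by its identifier, and 0 symbols changed. The unmatched ones may be outdated. Of 35557 features 21789 have 1 symbol, 1621 several and 12147 none. For 999 genes with several features the one with the highest mean was used. A limma fit (3.58.1, R 4.3.3) had 1 mean for each of 8 combinations of group and set (residual degrees of freedom 8, prior 4.26), with Benjamini-Hochberg adjustment over 19938 genes. It was tested on simulated data. Promoter motifs were searched with Python 3.11.15. The number of arrays, 2 for each group and set, limits the precision.

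The rule for named genes took all 9 members, up to 4 genes past the threshold per related list and comparison and the 3 genes most like each called member. Fos, Jun, Junb and Ets1 were named in addition, for the AP-1 match of Mmp13 and for the factors that fell. Members and lists were chosen with earlier results of these data known. Promoters are shown although members did not move together, since protein sequences were not used here. Alternatives were an additive array-set term, a replicate block, a filter on dim features (mean under 6.5, leaving 13108 genes), the mean of features, repeated quantile normalization, eBayes with trend and robust, and each array left out.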

Additional observations from a re-analysis of the deposited data

Results flagged for a closer look

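Outside the 9 members, 3 tested differences between responses stood out in the related lists. The 6 h response of Mmp25 in naive cells was larger than its 3 h response by 2.19 ± 0.25 on the log2 scale (limma adjusted p = 0.00302), a difference in which time and array set cannot be told apart. The same difference for Lrp1 in naive cells was -1.05 ± 0.20 (adjusted p = 0.0203), with the same limit, and it was lost without naive 0 h replicate 2 (-0.96, adjusted p = 0.104) or 3 (-0.90, 0.0546), naive 3 h replicate 2 (-0.87, 0.0961) or naive 6 h replicate 1 (-1.06, 0.073). The 3 h response of Irf1 was smaller in pretreated than in naive cells by -1.65 ± 0.21 (adjusted p = 0.00822). It missed the threshold with an additive array-set term (-1.26, adjusted p = 0.244), without naive 3 h replicate 2 (-1.65, 0.0525), without pretreated 0 h replicate 4 (-1.56, 0.0577) and without pretreated 3 h replicate 2 (-1.61, 0.0639).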

How the results depend on the processing

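Of 2178 values of members under alternative settings, 2158 kept their direction where called and their side of the threshold, 3 fell below it (Mmp14 in naive cells at 6 h), 17 passed it and 0 were called with the opposite sign. A replicate block for low- and high-numbered arrays gave 5 members for naive cells at 6 h, adding Mmp8, Timp1 and Timp2 (adjusted p = 0.0249, 0.00358 and 0.00865), and 2 for pretreated cells at 6 h, adding Mmp19 (0.00824). Between pretreated and naive cells it gave 3 at 0 h (Mmp8, Mmp12 and Timp2, at 9.13e-05, 0.00843 and 0.0104), 1 at 3 h (Mmp8, 0.00508) and 2 at 6 h (Mmp8 and Mmp14, 0.0102 and 0.0229). Deviations of like-numbered arrays correlated at 0.152 to 0.662 in set 1 and 0.082 to 0.644 in set 2, over 0.1 in 11 of 12 cases. The labels do not say that these numbers pair arrays and each set holds only 2 numbers, and the block was kept as an alternative. Over all genes the block gave 1925 changed genes for naive cells at 3 h, 1272 and 1895 for pretreated cells at 3 h and 6 h, 684, 76 and 845 between pretreated and naive cells at 0 h, 3 h and 6 h, 31 and 302 for pretreated minus naive responses at 3 h and 6 h, and 1252 and 147 for 6 h minus 3 h in naive and pretreated cells. The additive array-set term gave 923 for pretreated cells at 3 h, 273 between pretreated and naive cells at 6 h, 10 and 245 for pretreated minus naive responses, and 1088 and 102 for 6 h minus 3 h in naive and pretreated cells. For the last of these, quantile normalization again gave 23 and eBayes with trend and robust 8, against 4.

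With 1 array left out, members called ranged from 1 to 3 for naive cells at 6 h and from 0 to 1 between pretreated and naive cells at 0 h and 6 h, for the difference of responses at 6 h and for 6 h minus 3 h in naive cells. Other member counts did not move. All genes called ranged from 543 to 1161 for naive cells at 3 h, 2217 to 3808 at 6 h, 219 to 604 for pretreated cells at 3 h and 486 to 1122 at 6 h. Between pretreated and naive cells they ranged from 142 to 203 at 0 h, 1 to 6 at 3 h and 13 to 406 at 6 h. For pretreated minus naive responses they ranged from 8 to 17 at 3 h and 4 to 157 at 6 h, and for 6 h minus 3 h from 63 to 447 in naive and 0 to 80 in pretreated cells. The cause of these shifts was not tested. A lone array was assumed to vary like the other groups.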
